A study of Mus musculus with 12 samples.

Results

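The NEDD4 family of ubiquitin ligases and its membrane adaptors were followed in RNA sequencing of CD8+ T cells, the cytotoxic lymphocytes, from the spleens of C57BL/6 mice, an inbred laboratory strain. Polyadenylated RNA was read in 6 libraries of cells given an EZH2 inhibitor (EZH2i) and 6 libraries of cells given DMSO, the solvent, as control. EZH2 is the catalytic subunit of the Polycomb complex PRC2, and the methyl groups it places on histone H3 lysine 27 mark silenced genes. Which inhibitor was used, at what dose and for how long, the age of the mice and any stimulation of the cells are not stated in the sources used here. Nor do the labels tie each library to its own mouse or culture. The p-values given for other genes measure the spread between libraries, which may be technical. The genes followed were 10 of the 24421 symbols in the count tables. They were the ligases Nedd4, Nedd4l, Itch, Wwp1, Wwp2, Smurf1, Smurf2 and Hecw2 and the adaptors Ndfip1 and Ndfip2, all of which were found. They were chosen as the family of Nedd4, which was higher with EZH2i in these same libraries. The contrast of EZH2i with DMSO is therefore given for them as a description, with no p-value.

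Ligases of this family carry a catalytic HECT domain, in which a cysteine accepts ubiquitin from an E2 enzyme and passes it to the substrate. Their WW domains bind short proline-rich PY motifs in substrates and adaptors. Ndfip1 and Ndfip2 are membrane proteins of endosomes and the Golgi that carry such PY motifs and activate the ligases. In mouse T cells, loss of Itch or of Ndfip1 leads to overactive cells and inflammation, with accumulation of the Itch substrate JunB. Loss of Nedd4 leaves mouse T cells less responsive, a finding tied to its substrate Cbl-b.

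Expression is given as CPM, the gene's counts scaled to a common library total after TMM scaling for differences in RNA composition. A gene was called when the quasi-likelihood test of edgeR, fitted across all 11727 tested genes, gave a Benjamini-Hochberg adjusted p under 0.05. For the members, which were chosen on this contrast, a call under any setting is only a description. Fold changes are EZH2i over DMSO on the log2 scale. EZH2i libraries held 19610258 to 31206228 counts and DMSO libraries 17215483 to 28092434. The library numbered 6 stood apart in each group, at -23.3 against 28.3 to 35.7 for the other EZH2i libraries and at -64.1 against -20.1 to -9.58 for the other DMSO libraries on the component with the most variance. Results that rest on number 6 are therefore given with and without it. Of the 4 markers of CD8 T cells, Cd8a averaged 885 ± 47.3 CPM with EZH2i and 1091 ± 31.1 CPM with DMSO (SD, n = 6 each) and was called lower. Cd8b1, the other CD8 chain, averaged 945 CPM with EZH2i and 1195 CPM with DMSO, lower with EZH2i at all 6 replicate numbers (log2 fold change -0.34, edgeR adjusted p = 0.198). It was called lower in a fit blocked by replicate number (-0.36) and without both libraries numbered 6 (-0.30), while Cd3e and Cd3d were not called. Ezh2 itself averaged 234 ± 26.6 CPM with EZH2i and 278 ± 29.4 CPM with DMSO and was not called (log2 fold change -0.25, edgeR adjusted p = 0.0833).

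Markers of other cell types were low in both groups. The 2 NK cell markers summed to 3.81 to 9.29 CPM with EZH2i and 0.432 to 1.49 CPM with DMSO, and 1 of them, Klrb1c, was called higher, while Ncr1 averaged 0.0455 CPM in each group. Of 3 myeloid markers, summing to 4.64 to 14.5 CPM with EZH2i and 1.73 to 7.21 CPM with DMSO, Itgam was called higher, and Lyz2 and Csf1r stayed under 1 CPM. Of 3 dendritic cell markers, summing to 1.08 to 3.69 CPM with EZH2i and 0.179 to 1.55 CPM with DMSO, Itgax was called higher. The B cell markers summed to at most 0.621 CPM with EZH2i and 0.407 CPM with DMSO, the platelet marker Pf4 to at most 0.691 CPM with EZH2i and 0.665 CPM with DMSO, and both erythroid markers had 0 counts. The CD4 T cell markers summed to 5.94 to 9.46 CPM with EZH2i and 2.81 to 8.68 CPM with DMSO, with Cd4 itself at 0.0983 and 0.0887 CPM on average in EZH2i and DMSO. Their part in the results on the ligases was not tested. In such bulk samples, a change in the number of cells of a type and a change in RNA per cell cannot be told apart.

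Nedd4, the founding ligase of the family, was far higher with EZH2i. Its CPM was 110.9, 103, 110.2, 104, 99.5 and 115 in EZH2i libraries 1 to 6, against 47.8, 43.6, 50.6, 44.4, 47.6 and 39.4 in DMSO libraries 1 to 6. The groups did not overlap, and the gap between the lowest EZH2i library and the highest DMSO library was wider than the range within either group. The mean was 107 ± 5.92 CPM with EZH2i and 45.6 ± 3.97 CPM with DMSO (SD, n = 6 each), a log2 fold change of 1.23 (SE 0.070). A larger rise was found for 4.97% of all tested genes. Between libraries of the same number the ratio of EZH2i to DMSO ran from 2.09 to 2.37 for numbers 1 to 5 and was 2.93 for number 6. Summed over libraries this was 17333 counts with EZH2i and 6148 with DMSO. Without both libraries numbered 6 the log2 fold change was 1.18.

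Nedd4 lies on the plus strand of chromosome 9 from 72662346 to 72749852 (GRCm38, GENCODE M21), with 10 annotated transcripts. The 4 genes annotated within its span share 0 exonic bases with its GENCODE exons. RefSeq gives it a pair of start sites, and the count per gene does not separate transcripts from them. The window of the second start lies within the span of Gm7265, on the same strand. The windows from 250 bases before to 50 bases after each start are printed for Nedd4, whose level differed most, beside those of Smurf1, which was also called higher, and Wwp2, which was not called. Sequences are from RefSeq on GRCm38.p6, 5′ to 3′ on the gene's strand, and capitals mark CG dinucleotides, the sites of DNA methylation that cluster in CpG islands. As background, PRC2 is known to occupy CpG islands of silenced genes in mammalian cells. No binding, methylation or histone mark was measured here.
Nedd4 first start, chr9:72662081-72662380, plus strand: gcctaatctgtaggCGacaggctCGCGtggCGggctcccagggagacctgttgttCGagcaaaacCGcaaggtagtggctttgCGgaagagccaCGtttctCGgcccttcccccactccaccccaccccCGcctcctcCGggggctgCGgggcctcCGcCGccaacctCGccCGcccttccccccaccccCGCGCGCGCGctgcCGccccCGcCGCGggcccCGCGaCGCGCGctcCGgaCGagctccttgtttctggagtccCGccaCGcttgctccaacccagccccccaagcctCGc
Nedd4 second start, chr9:72693048-72693347, plus strand: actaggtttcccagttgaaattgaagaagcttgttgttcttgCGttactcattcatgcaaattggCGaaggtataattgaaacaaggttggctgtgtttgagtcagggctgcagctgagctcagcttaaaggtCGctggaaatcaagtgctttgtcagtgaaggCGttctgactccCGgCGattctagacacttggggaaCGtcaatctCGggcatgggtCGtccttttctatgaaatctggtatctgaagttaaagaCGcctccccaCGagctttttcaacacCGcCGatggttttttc
Smurf1 start, chr5:144965781-144966080, minus strand: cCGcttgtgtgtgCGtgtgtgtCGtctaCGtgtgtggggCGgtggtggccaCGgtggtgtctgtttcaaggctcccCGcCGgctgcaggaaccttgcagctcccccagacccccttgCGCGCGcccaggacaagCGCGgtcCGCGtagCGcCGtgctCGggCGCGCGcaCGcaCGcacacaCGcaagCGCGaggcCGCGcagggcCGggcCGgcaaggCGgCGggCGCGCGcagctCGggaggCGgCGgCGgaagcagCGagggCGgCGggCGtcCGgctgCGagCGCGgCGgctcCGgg
Wwp2 start, chr8:107436120-107436419, plus strand: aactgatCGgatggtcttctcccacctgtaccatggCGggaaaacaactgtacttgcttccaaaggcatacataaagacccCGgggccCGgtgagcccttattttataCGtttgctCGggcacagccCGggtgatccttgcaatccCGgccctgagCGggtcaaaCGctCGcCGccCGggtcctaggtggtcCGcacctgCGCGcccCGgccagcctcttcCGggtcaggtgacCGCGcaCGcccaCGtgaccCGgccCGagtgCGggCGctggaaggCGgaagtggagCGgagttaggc

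The first Nedd4 window held 35 CG dinucleotides and 73% G or C, and 93.05% of the 32851 RefSeq windows of this length held fewer CG. Its second window held 13 CG, with fewer in 62.1% of windows. Smurf1 had 49 CG, with fewer in 99.0% of windows, and Wwp2 had 28, with fewer in 85.8%. CG-rich starts occurred in ligases with and without a called difference. Among other members with a window, Smurf2 held 43 CG, Hecw2 34 and Ndfip2 15, against a median of 7 over all windows. No window was examined for Nedd4l, Itch, Wwp1 or Ndfip1, so statements on member windows leave these genes out. The GC box GGGCGG, searched on both strands, was found in each of the member windows except the second of Nedd4, and in 35.7% of all windows. TGANTCA, the AP-1 motif, was found only in the second Nedd4 window among those of the members, and in 7.81% of all windows. These matches describe letters and say nothing of binding.

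**Figure D1:**
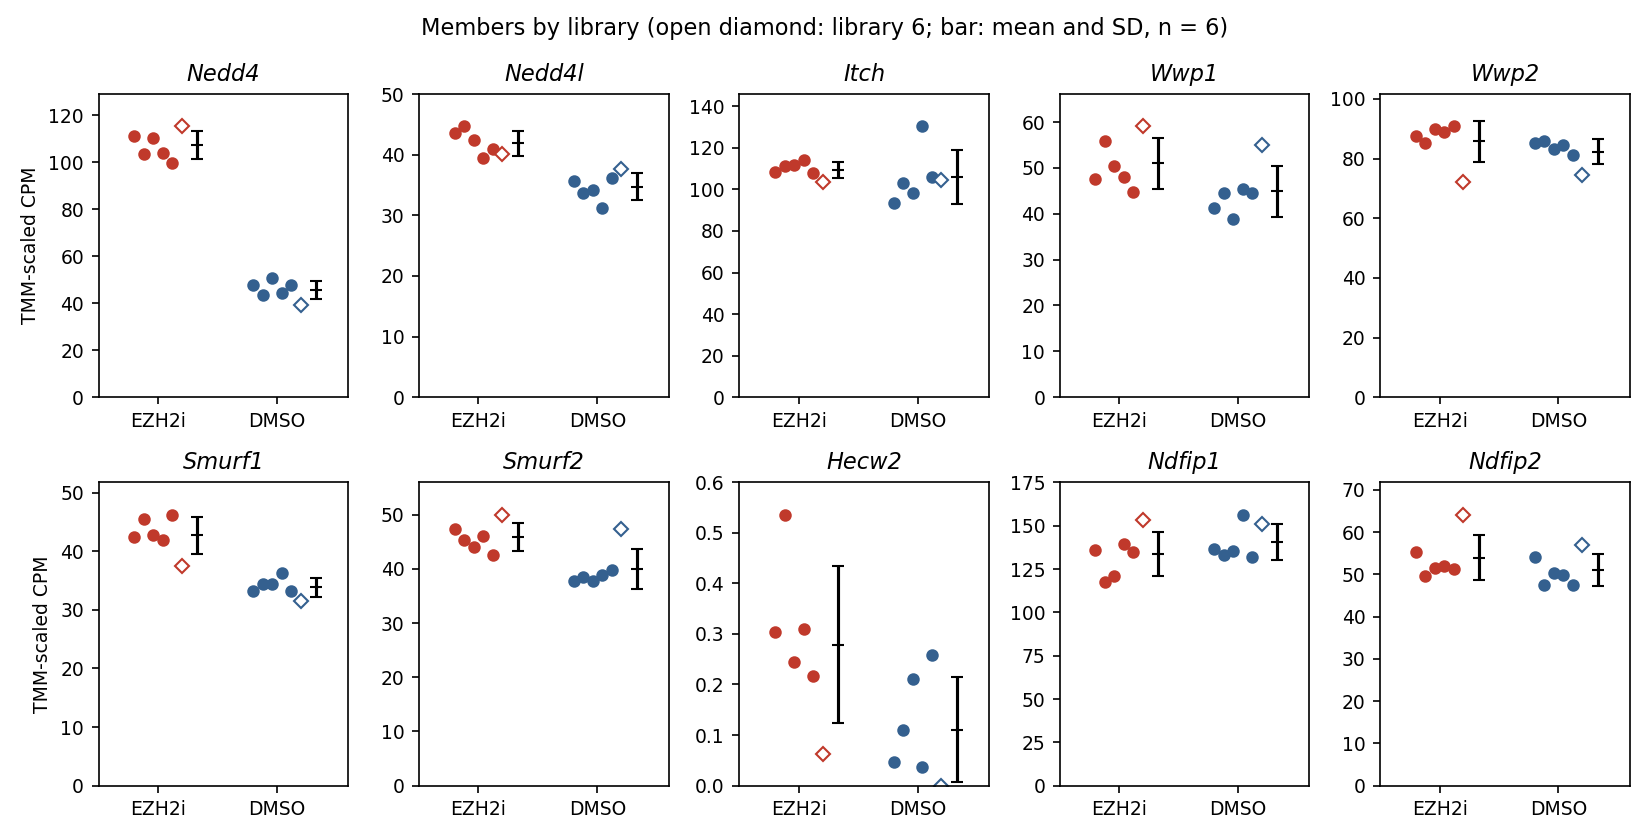
TMM-scaled CPM of the 10 members in each library, with EZH2i in red at the left and DMSO in blue at the right of each panel. Points are libraries, open diamonds are the libraries numbered 6, and bars give the mean and SD (n = 6). The groups are apart for Nedd4, at 99.5 to 115 and 39.4 to 50.6 CPM, and by less for Nedd4l and Smurf1, and overlap for the others.

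Of the 10 members, 3 showed groups that did not overlap and were called higher, namely Nedd4, Nedd4l and Smurf1. Among all tested genes, 7.50% had groups that did not overlap with EZH2i higher, and 13.3% were called higher (19.3% in either direction). Since the members were chosen on this contrast, nothing is read from their count. None of the 9 tested members was called lower by edgeR, where 6.05% of all tested genes were, with 0 lower at an unadjusted p under 0.05 and 0 lower by DESeq2. Nor did any have all EZH2i libraries below all DMSO libraries, where 2.74% of tested genes did. Their median log2 fold change was 0.18, against -0.013 over all tested genes. With 9 genes and shares this small, the absence of lower members is not read as a result, nor is the median.

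Nedd4l, the close relative of Nedd4 known for removing the epithelial sodium channel from the cell surface, was higher with EZH2i by a small step. Its CPM ran from 39.4 to 44.7 with a median of 41.7 with EZH2i, and from 31.1 to 37.6 with a median of 34.97 with DMSO. All EZH2i libraries lay above all DMSO libraries. This was a log2 fold change of 0.27 (SE 0.066), and the ratio within number 6 was 1.07, the smallest of the 6 numbers, against 1.13 to 1.33 for the others. An antisense gene, A330084C13Rik, shares 277 exonic bases with Nedd4l, and the strand setting of the counting is not given in the sources used here.

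Smurf1, a ligase of SMAD proteins and of RhoA, was likewise higher. Its CPM ran from 37.4 to 46.2 with a median of 42.6 with EZH2i, and from 31.4 to 36.3 with a median of 33.8 with DMSO. The groups did not overlap, though EZH2i library 6, at 37.4 CPM, lay close above the highest DMSO library. The log2 fold change was 0.34 (SE 0.068).

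Smurf2, which with the adaptor Smad7 acts on the TGF-beta receptor, ran from 42.6 to 50.03 CPM with a median of 45.7 with EZH2i, and from 37.7 to 47.3 CPM with a median of 38.8 with DMSO. The overlap came from DMSO library 6, at 47.3 CPM, since the other DMSO libraries reached at most 39.9 CPM. Smurf2 was not called, with a log2 fold change of 0.20 (SE 0.073). It was called higher with upper-quartile scaling (0.26), with the replicate number as a block (0.20), without DMSO library 6 (0.25) and without both libraries numbered 6 (0.23).

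Wwp1, a ligase with known substrates among KLF transcription factors, ran from 44.6 to 59.1 CPM with a median of 49.2 with EZH2i, and from 38.8 to 54.96 CPM with a median of 44.4 with DMSO. The groups overlapped, while EZH2i was higher in 6 of 6 same-numbered libraries, by ratios from 1.005 to 1.30. Wwp1 was not called, with a log2 fold change of 0.18 (SE 0.095). It was called higher with the replicate block (0.19) and without both libraries numbered 6 (0.21).

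With the block, 5 of the 9 tested members were called higher, where 24.7% of all tested genes were. Without both libraries numbered 6 it was also 5, where 23.9% were. With upper-quartile scaling 4 were, where 15.3% were, and the share of calls over all genes that were higher was 83.8% with that scaling and 68.7% with TMM.

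Itch is a ligase of JunB and phospholipase C-gamma, and its loss gives itchy mice their inflammation. Its CPM ran from 103 to 114 with a median of 109.8 with EZH2i, and from 93.5 to 131 with a median of 104 with DMSO. DMSO library 4, at 131 CPM, was higher than every EZH2i library, and the other DMSO libraries lay at 93.5 to 106 CPM. The log2 fold change was 0.05 (SE 0.076), and 0.11 without DMSO library 4, with no call in either case.

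Wwp2, a ligase of the transcription factor Egr2 in T cells, ran from 72.1 to 90.9 CPM with a median of 88.3 with EZH2i, and from 74.3 to 85.8 CPM with a median of 83.9 with DMSO. In each group library 6 was the lowest. Wwp2 was not called, with a log2 fold change of 0.06 (SE 0.067). The microRNA gene Mir140 lies within Wwp2 exons on the same strand and shares 70 bases with them.

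Hecw2 and Hecw1 are the family members known from the nervous system. Hecw2 gave 6, 17, 7, 8, 5 and 2 counts in EZH2i libraries 1 to 6, and 1, 3, 4, 1, 6 and 0 counts in DMSO libraries 1 to 6. These 45 and 15 counts in EZH2i and DMSO came to 0.279 ± 0.155 and 0.111 ± 0.104 CPM, the groups overlapped, and Hecw2 was too low to test. Hecw1, the remaining ligase of the family, had 0 counts in all 12 libraries. Taking 3 counts over a group as the floor, that allows up to 0.0186 CPM with EZH2i and 0.0223 CPM with DMSO, for counting error only.

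Of the adaptors, Ndfip1, whose loss in mouse T cells gives inflammation of skin and gut, ran from 118 to 153 CPM with a median of 135 with EZH2i, and from 132 to 156 CPM with a median of 136 with DMSO. The groups overlapped, and EZH2i was higher in 2 of 6 same-numbered libraries. The log2 fold change was -0.07 (SE 0.076), with no call under any setting tried.

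Ndfip2, the related adaptor, ran from 49.5 to 64.2 CPM with a median of 51.8 with EZH2i, and from 47.5 to 56.9 CPM with a median of 50.1 with DMSO. EZH2i was higher in 6 of 6 same-numbered libraries, by ratios of 1.02 to 1.13, and library 6 was the highest in each group. The log2 fold change was 0.08 (SE 0.077), and 0.02 without EZH2i library 6, with no call under any setting tried. A processed pseudogene on the opposite strand, Gm16259, shares 553 exonic bases with Ndfip2, so part of its count is uncertain.

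**Figure D2:**
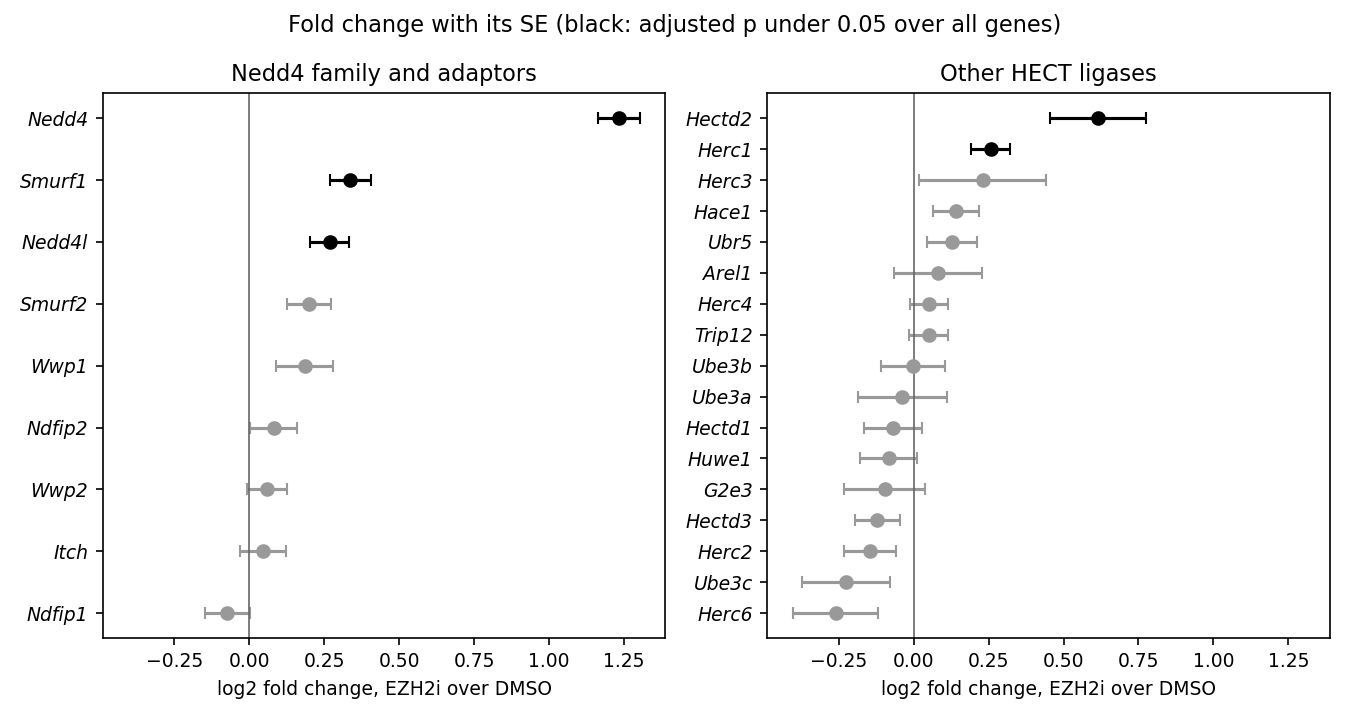
Log2 fold change of EZH2i over DMSO with its SE for the 9 tested members at the left and the 17 other HECT ligases at the right, on the same axis. Black points passed an edgeR adjusted p under 0.05 over all genes. Nedd4, at 1.23, lies apart from the rest of the left panel, which ends at 0.34, and the right panel ends at 0.61.

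To compare the members with each other, CPM was divided by length, taken as the union of a gene's annotated exons in kilobases. On this scale Ndfip1 was the highest, at 21.1 ± 2.04 with EZH2i and 22.2 ± 1.64 with DMSO (CPM per kb, SD, n = 6 each), and did not overlap with any ligase. Itch led the ligases by its mean, at 11.3 ± 0.391 with EZH2i and 10.9 ± 1.32 with DMSO. With DMSO its lowest library, at 9.63, lay below the highest of Wwp2, at 9.67. Nedd4 stood in place 3 of the members with EZH2i, at 9.77 ± 0.539, and in place 8 with DMSO, at 4.15 ± 0.362. With EZH2i its range overlapped that of Wwp2 next below it, and with DMSO that of Ndfip2 next above it. Nedd4l was the lowest of the 9 tested members in each group, at 2.37 ± 0.116 with EZH2i and 1.97 ± 0.129 with DMSO. Wwp1 and Smurf2 overlapped in both groups.

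That order depends on the length used, and an alternative chosen after seeing the data took the longest protein-coding transcript. Ndfip1 then remained first and Nedd4l the lowest tested member, but Ndfip2 was second in each group. Nedd4 was in place 5 in both groups, at 19.5 ± 1.08 with EZH2i and 8.29 ± 0.722 with DMSO. With EZH2i its range of 18.1 to 20.98 then overlapped those of Wwp2, Itch and Ndfip2, while with DMSO its highest library, at 9.21, lay below the lowest of these 3 genes. The counts do not say which transcripts were read.

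**Figure D3:**
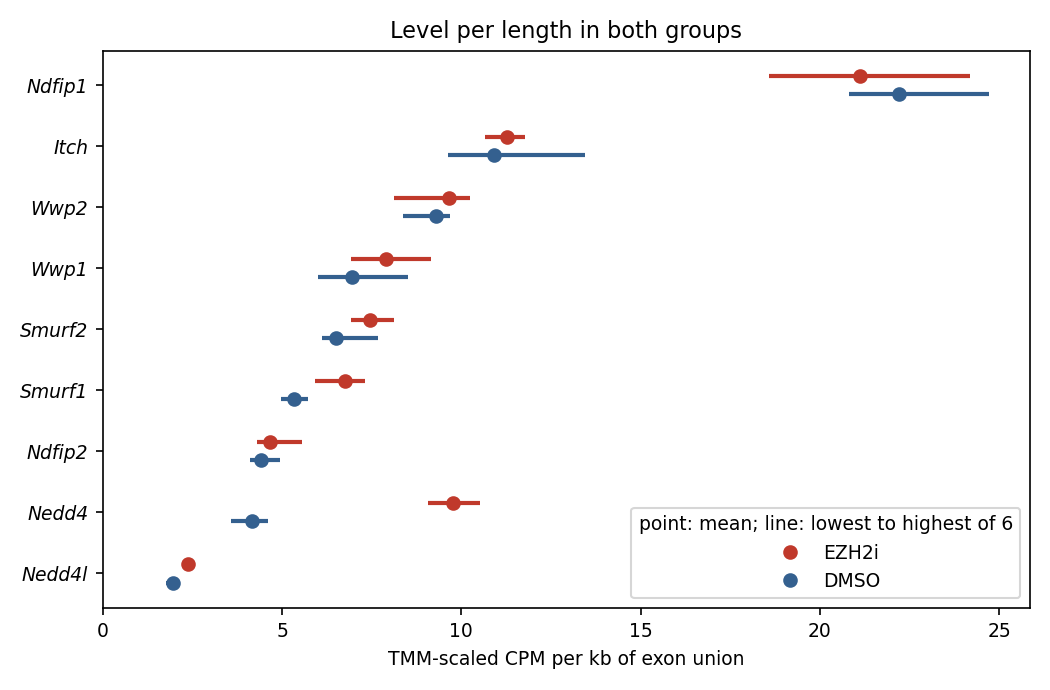
TMM-scaled CPM per kb of exon union for the 9 tested members, in the order of their DMSO means. Points are means and lines run from the lowest to the highest of 6 libraries, with EZH2i in red above DMSO in blue. Nedd4 is at 9.77 with EZH2i and 4.15 with DMSO, and the adaptor Ndfip1 is the highest in both groups.

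Summed over the 8 ligases, the level was 55.2 ± 0.831 CPM per kb of exon union with EZH2i and 45.1 ± 1.66 with DMSO. Leaving out Nedd4, the sum was 45.4 ± 0.885 with EZH2i and 40.97 ± 1.899 with DMSO, with the lowest EZH2i library at 44.2 and the highest DMSO library at 43.8. Nedd4 made up 17.7% ± 0.958 of the summed ligase level with EZH2i and 9.23% ± 1.04 with DMSO. The share was 21.7% with EZH2i and 11.4% with DMSO when length was that of the longest coding transcript. With that length the groups overlapped in the sum without Nedd4, as EZH2i library 6 lay below DMSO library 4. The full ligase sums of these libraries were 87.9 and 77.4 CPM per kb, of which Nedd4 made up 23.9% and 10.4%. By exon union Itch made up 20.4% ± 0.636 with EZH2i and 24.2% ± 2.04 with DMSO. Shares are parts of one whole, so a larger share of Nedd4 leaves less for the other ligases together. The level of Itch itself was 11.3 CPM per kb with EZH2i and 10.9 with DMSO. The level of Nedd4 was 4.13 ± 0.309 times that of Nedd4l with EZH2i and 2.12 ± 0.241 times with DMSO, per kb of exon union. The adaptors together came to 25.8 ± 2.44 CPM per kb with EZH2i and 26.6 ± 1.81 with DMSO. Both groups overlapped in that sum, and Ndfip1 per kb was 4.52 ± 0.260 times Ndfip2 with EZH2i and 5.04 ± 0.384 times with DMSO.

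**Figure D4:**
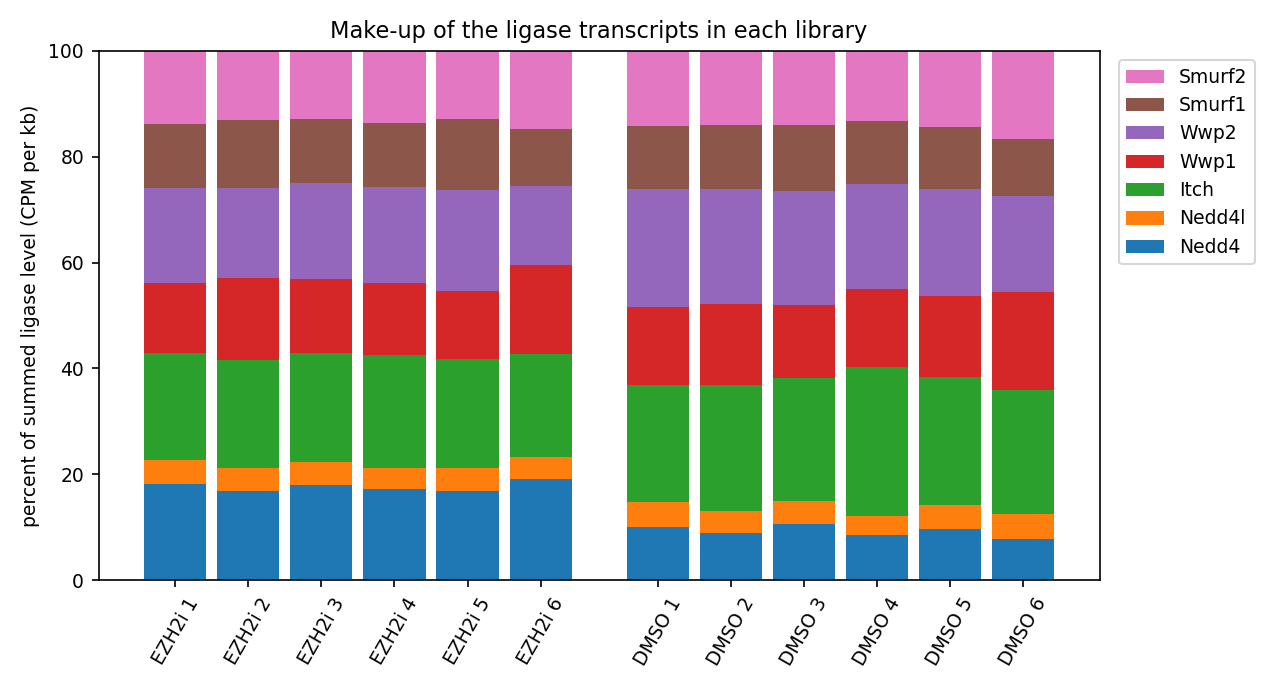
Share of each ligase in the summed ligase level, in CPM per kb of exon union, for the 6 EZH2i libraries at the left and the 6 DMSO libraries at the right. Hecw2, at most 0.0736% of the sum, is not drawn. The lowest segment, Nedd4, takes 16.7% to 19.2% with EZH2i and 7.79% to 10.6% with DMSO.

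The libraries numbered 6 differed from their groups in the balance between the ligases. For Wwp1, Wwp2, Smurf1 and Smurf2 the direction was the same with and without the inhibitor. Wwp1 was highest in library 6 of each group, at 59.1 CPM against 49.3 ± 4.18 in the other 5 EZH2i libraries, and at 54.96 CPM against 42.8 ± 2.78 in the other 5 DMSO libraries. Smurf2 was also highest in library 6 of each group. Wwp2, in contrast, was lowest there, at 72.1 CPM against 88.5 ± 2.24 in the other EZH2i libraries, and at 74.3 CPM against 83.95 ± 1.81 in the other DMSO libraries. Smurf1 was also lowest in library 6 of each group, at 37.4 CPM against 43.8 ± 1.96 for EZH2i and 31.4 CPM against 34.3 ± 1.28 for DMSO. Nedd4 went in opposite ways, as library 6 was the highest of the EZH2i libraries, at 115 CPM, and the lowest of the DMSO libraries, at 39.4 CPM. For Nedd4l, library 6 was the highest with DMSO but within the range of the others with EZH2i. For Itch, it was the lowest with EZH2i but within that range with DMSO. The labels do not say what sets number 6 apart, and these are differences of 1 library a group, with no test.

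**Figure D5:**
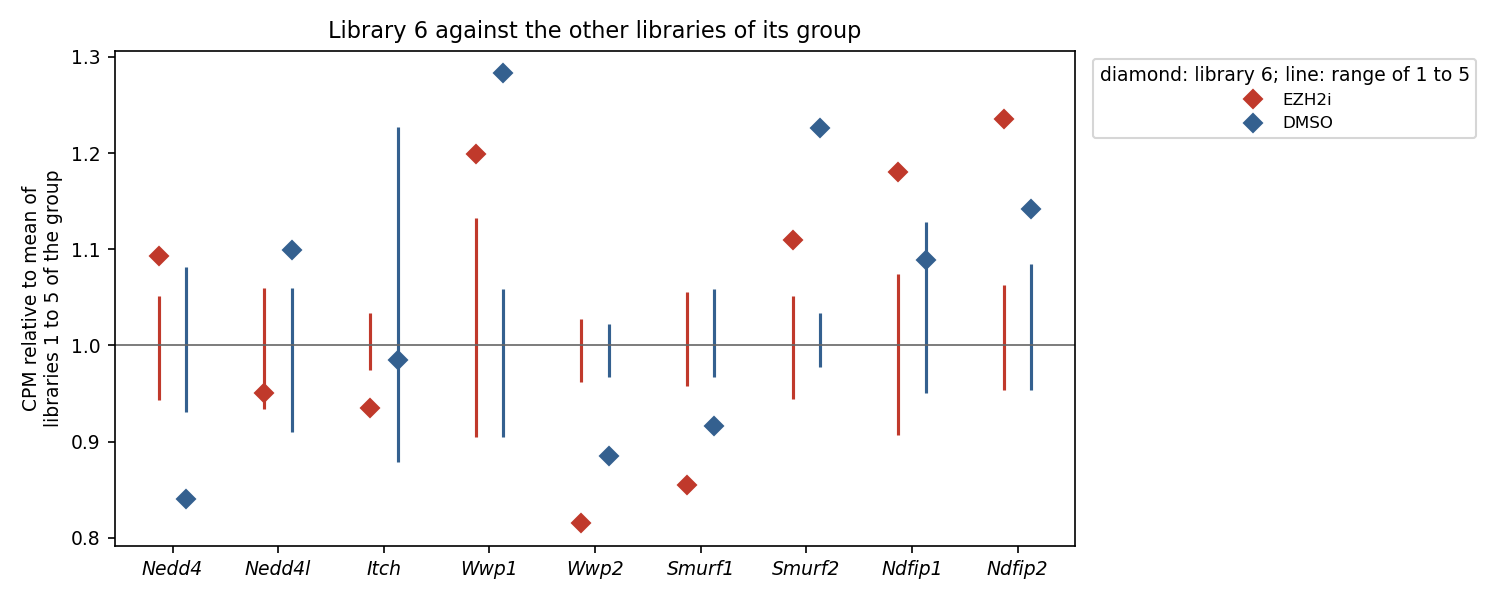
CPM of library 6 relative to the mean of libraries 1 to 5 of its group for the 9 tested members, with EZH2i in red left of DMSO in blue. Diamonds are library 6 and lines span libraries 1 to 5. Wwp1, Smurf2 and Ndfip2 lie above the lines in both groups and Wwp2 and Smurf1 below them, while Nedd4 lies above with EZH2i (1.09) and below with DMSO (0.841).

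Over all 12 libraries, the 5 genes most like Nedd4 in log2 CPM, among tested genes with a mean of at least 2 CPM, were Serpinb9 (Pearson r 0.994), Aldh7a1 (0.990), Usp2 (0.987), Ston2 (0.985) and Ptpn13 (0.984). Serpinb9, an inhibitor of granzyme B, averaged 114 ± 4.87 CPM with EZH2i and 48.4 ± 2.99 CPM with DMSO. Usp2, a ubiquitin-removing protease, averaged 4.91 ± 0.688 CPM with EZH2i and 1.62 ± 0.229 CPM with DMSO. The 12 libraries share the split into treatment groups; the values are a description, with no p-value.

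The other HECT ligases, which share the catalytic domain without the WW domains, were followed as the nearest relatives. All 17 that were found were tested, and 2 were called higher and 0 lower by edgeR, with 0 lower at an unadjusted p under 0.05 and 0 lower by DESeq2. Over all tested genes 13.3% were called higher and 6.05% lower. Hectd2 rose to 17.4 ± 3.53 CPM with EZH2i, against 11.4 ± 2.03 CPM with DMSO (log2 fold change 0.61, SE 0.16, edgeR adjusted p = 0.0164), with EZH2i above DMSO at all 6 replicate numbers. Herc1, a giant HECT protein, rose to 136 ± 8.34 CPM with EZH2i, against 114 ± 8.45 CPM with DMSO (log2 fold change 0.26, SE 0.065, edgeR adjusted p = 0.0139). Their median log2 fold change was -0.0024. With the replicate block 3 were called higher and 4 lower, where 24.7% of all tested genes were higher and 24.3% lower. Without both libraries numbered 6 it was 4 higher and 2 lower, where 23.9% of all were higher and 20.9% lower. A difference between these ligases and the NEDD4 family was not tested.

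Of 17 tested adaptors and regulators of the family beyond the Ndfip proteins, 5 rose and 1 fell, where 13.3% of all tested genes rose and 6.05% fell, with a median log2 fold change of -0.026. Laptm4b, a lysosomal membrane protein with PY motifs, rose to 2.29 to 4.06 CPM with EZH2i, with a median of 3.54, against 0.476 to 1.07 CPM with DMSO, with a median of 0.939 (log2 fold change 1.94, SE 0.21, edgeR adjusted p = 3.07e-05). Pmepa1, a membrane protein whose PY motifs bind NEDD4 ligases and which restrains TGF-beta signals, rose to 28.8 to 41.8 CPM with EZH2i, with a median of 36.6, against 18.2 to 24.6 CPM with DMSO, with a median of 22.1 (log2 fold change 0.72, SE 0.11, edgeR adjusted p = 0.000461). In both genes all EZH2i libraries lay above all DMSO libraries.

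Grb10, an adaptor that joins Nedd4 to the IGF1 receptor, was low and rose to 1.16 ± 0.266 CPM with EZH2i, against 0.580 ± 0.275 CPM with DMSO (log2 fold change 1.02, SE 0.31, edgeR adjusted p = 0.0345). It was no longer called without DMSO library 2, 3 or 5 or EZH2i library 1, 2 or 3, with adjusted p from 0.0544 to 0.0830, or with no filter on low counts. Sgk1, the kinase that inhibits Nedd4l by phosphorylation, fell to 15.4 ± 2.30 CPM with EZH2i, against 22.6 ± 3.27 CPM with DMSO (log2 fold change -0.56, SE 0.12, edgeR adjusted p = 0.00611), with EZH2i below DMSO at all 6 replicate numbers. Named after their values were seen, N4bp1, an inhibitor of Itch (log2 fold change 0.34, edgeR adjusted p = 0.0244), and Rnf11, a small partner of the ligases (0.35, edgeR adjusted p = 0.0259), also rose. N4bp1 was no longer called without DMSO library 1, 2, 3 or 5 or EZH2i library 1, with adjusted p from 0.0546 to 0.0650. Rnf11 was no longer called without DMSO library 1, 2, 3 or 5 or EZH2i library 1 or 2, with adjusted p from 0.0514 to 0.0662, or with no filter (0.0518). The count that rose was 2 without DMSO library 2, 3 or 5 or EZH2i library 1, and 3 without DMSO library 1 or EZH2i library 2. The count that fell was 2 without DMSO library 6, with the block and without both libraries numbered 6. With the block 24.3% of all tested genes were lower, and without both libraries numbered 6 20.9% were. The alpha-arrestins, adaptors with PY motifs, were not called, and Txnip, the one with the highest CPM, chosen after its values were seen, averaged 762 CPM with EZH2i and 697 CPM with DMSO (log2 fold change 0.13, SE 0.31, edgeR adjusted p = 0.816). Txnip was at -0.038 without DMSO library 6 and 0.32 without EZH2i library 6. Arrdc4, also named after its values were seen, was low, at 1.66 CPM with EZH2i and 2.56 CPM with DMSO. Its log2 fold change was -0.65 (SE 0.28, edgeR adjusted p = 0.126), with EZH2i below DMSO at all 6 replicate numbers.

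Of 20 tested genes for described substrates of the family, 2 rose and 0 fell by edgeR, where 13.3% of all tested genes rose and 6.05% fell, with a median log2 fold change of 0.08. Igf1r, the receptor for insulin-like growth factor, rose to 36.4 to 63.0 CPM with EZH2i, with a median of 59.5, against 16.3 to 29.6 CPM with DMSO, with a median of 25.8 (log2 fold change 1.18, SE 0.15, edgeR adjusted p = 0.000143). Its groups did not overlap, and library 6 was the lowest in each. Jun, a partner of JunB in AP-1, rose to 77.0 ± 7.28 CPM with EZH2i, against 48.5 ± 12.6 CPM with DMSO, where library 6 stood at 72.8 CPM (log2 fold change 0.67, SE 0.14, edgeR adjusted p = 0.00478). Junb itself averaged 84.9 CPM with EZH2i and 91.8 CPM with DMSO (log2 fold change -0.11, SE 0.15, edgeR adjusted p = 0.655), and Cblb 265 CPM with EZH2i and 235 CPM with DMSO (0.17, SE 0.17, edgeR adjusted p = 0.533). These 2 were chosen after their values were seen, as the substrates named in the background. Cblb was called higher without both libraries numbered 6 (log2 fold change 0.23, edgeR adjusted p = 0.00833). It was not called with the replicate block (0.14) or by DESeq2 (0.16).

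The substrate count moved with number 6, as did the calls over all genes. Without EZH2i library 6 it was 7 higher and 1 lower, where 19.2% of all tested genes were higher and 15.4% lower. Without both libraries numbered 6 it was 7 higher and 2 lower, against 23.9% and 20.9% of all tested genes. With the block it was 4 higher and 3 lower, against 24.7% and 24.3% of all. By DESeq2 2 substrates were called higher and 3 lower, where 15.1% of all genes with an adjusted p were higher and 9.69% lower. By edgeR 2 were lower and 4 higher at an unadjusted p under 0.05. The 2 lower ones, Cflar and Rhoa, are named after their values were seen. Cflar ran from 81.0 to 85.1 CPM with EZH2i and from 86.2 to 109.6 CPM with DMSO (log2 fold change -0.18, edgeR adjusted p = 0.0544). Rhoa averaged 518 CPM with EZH2i and 601 CPM with DMSO (-0.21, edgeR adjusted p = 0.0597), with EZH2i below DMSO at all 6 replicate numbers.

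Among 11 T cell tolerance ligases outside the family, which include Cbl-b and GRAIL (Rnf128), 0 were called higher and 1 lower by edgeR, where 13.3% of all tested genes were higher and 6.05% lower. The median log2 fold change of the list was -0.0053. The one that fell was Peli1, a RING ligase that restrains T cell activation, at 97.4 ± 9.09 CPM with EZH2i, against 121.5 ± 5.50 CPM with DMSO (log2 fold change -0.32, SE 0.070, edgeR adjusted p = 0.00616), with no overlap of the groups. The list also held larger differences just short of the threshold, in genes named after their values were seen. Rnf128 averaged 0.820 ± 0.401 CPM with EZH2i and 0.360 ± 0.195 CPM with DMSO (log2 fold change 1.20, SE 0.40, edgeR adjusted p = 0.0512). Tnfaip3, the ubiquitin-editing enzyme A20, averaged 112 ± 48.0 CPM with EZH2i and 49.6 ± 19.7 CPM with DMSO (log2 fold change 1.17, SE 0.40, edgeR adjusted p = 0.0590). In each gene the groups overlapped, and each was called higher with the block (1.11 for Rnf128 and 1.10 for Tnfaip3), by DESeq2 and without both libraries numbered 6. At an unadjusted p under 0.05 the count higher was 2, where 2260 of all 11727 tested genes were. By DESeq2 2 were called higher, where 15.1% of all genes with an adjusted p were. The count higher was 2 with the block, 2 without EZH2i library 6 and 3 without both libraries numbered 6. Over all tested genes 24.7%, 19.2% and 23.9% were higher in these settings. The count called lower was 2 without EZH2i library 6 and without both libraries numbered 6, where 15.4% and 20.9% of all tested genes were lower.

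Of 12 genes for ubiquitin, its E1 and its E2 enzymes, 1 rose and 1 fell, where 13.3% of all tested genes rose and 6.05% fell, with a median log2 fold change of -0.11. Ube2e3, an E2 enzyme, rose to 35.4 ± 2.99 CPM with EZH2i, against 23.0 ± 2.79 CPM with DMSO (log2 fold change 0.62, SE 0.092, edgeR adjusted p = 0.000405). Ube2d2a, one of the E2 enzymes that serve many HECT ligases, fell to 213 ± 14.3 CPM with EZH2i, against 273 ± 18.8 CPM with DMSO (log2 fold change -0.36, SE 0.066, edgeR adjusted p = 0.00201). Groups did not overlap for either gene. Ube2d3 and Ube2l3, named after their values were seen, were lower at an unadjusted p under 0.05 but not called. Their log2 fold changes were -0.29 and -0.24 (edgeR adjusted p = 0.0580 and 0.0752), with EZH2i below DMSO at all 6 replicate numbers. The count called lower was 5 with the block and 5 without both libraries numbered 6, where 24.3% and 20.9% of all tested genes were lower. Leaving out DMSO library 4 gave 3, where 7.93% of all were lower, and leaving out EZH2i library 6 also gave 3, where 15.4% were. The count was 2 without EZH2i library 1 or 2.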

How the data were processed

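RNA of splenic CD8+ T cells was sequenced in 6 EZH2i and 6 DMSO libraries, made with a stranded TruSeq mRNA kit and read on a NextSeq per the labels' protocols. The authors deposited raw counts per gene symbol for each library. Per the submitters' processing notes, reads were handled with TopHat2 2.1.1, featureCounts, Trimmomatic 0.38, SAMtools 1.9 and FastQC 0.11.7, on GRCm38 (mm10). How multi-mapping reads and strand were handled is not stated there, so values of genes with exonic overlap are uncertain.

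The analysis used edgeR 4.0.16 and limma 3.58.1 under R 4.3.3, with filterByExpr defaults, TMM scaling and a two-sided quasi-likelihood test with the group alone, with Benjamini-Hochberg adjustment over the 11727 genes kept. Standard errors are the absolute log2 fold change over the root of F. The procedure was tested on simulated data. Alternatives were upper-quartile scaling, DESeq2 1.42.0, no filter, leaving out each library or both numbered 6, a replicate block and, added after seeing the data, another gene length. Lengths, positions and overlaps are from GENCODE M21, and promoter windows from RefSeq.

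The members, lists and markers were chosen with earlier results of these data known. The rule for named genes took all members, Hecw1, up to 4 called genes of each list by size of change, and the 5 genes most correlated with Nedd4. Intervals and floors of counts cover counting error only.

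Same-numbered libraries deviated from their group means together, with correlations across genes of 0.213, 0.445, 0.286, 0.527, 0.317 and 0.847 for numbers 1 to 6, each over the limit of 0.1. A pairing by number is not stated in the labels, and these values do not establish it. The main fit does not use it, and a fit blocked by replicate number is given as an alternative. Only 3 of 6 numbers correlated best with their own partner. Without number 6 the correlations for numbers 1 to 5 were 0.223, 0.181, 0.165, 0.341 and 0.0371, the last under that limit. Libraries of a group differed beyond sampling noise, the lowest chi-square per degree of freedom being 4.94.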

Additional observations from a re-analysis of the deposited data

Results flagged for a closer look

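In 42 groups of 6 libraries examined, 8 had a library whose gap to the nearest other passed Dixon's critical share of the group's range, where chance alone flags about 1 in 20 groups. The groups are not independent of each other, since they share libraries. Library 6 was the one apart in 7 of these 8. Among the members, Wwp2 stood at 72.1 CPM in EZH2i library 6, against 85.1 to 90.9 CPM in the other EZH2i libraries. Smurf2 stood at 47.3 CPM in DMSO library 6, against 37.7 to 39.9 CPM in the others. Itch stood at 131 CPM in DMSO library 4, against 93.5 to 106 CPM in the others.

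Among the other genes followed, Igf1r was low in library 6 of each group, at 36.4 CPM with EZH2i, against 56.4 to 63.0 CPM in the other EZH2i libraries, and at 16.3 CPM with DMSO, against 25.0 to 29.6 CPM in the other DMSO libraries. Hectd2 stood at 10.8 CPM in EZH2i library 6, against 16.7 to 20.1 CPM in the others. Peli1 stood at 79.1 CPM in EZH2i library 6, against 99.3 to 103 CPM in the others. Jun stood at 72.8 CPM in DMSO library 6, against 36.0 to 48.0 CPM in the others.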

How the results depend on the processing

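As a description of genes chosen on this contrast, the fold change of each of the 9 tested members kept its sign under all alternatives run. Leaving out 1 library at a time gave a log2 fold change of 1.19 to 1.25 for Nedd4. With the replicate block the genes called over all tested were 2892 higher and 2849 lower, against 1557 and 709 without it. In the block fit 5 members, 4 substrates and 2 tolerance ligases were higher, and 4 other HECT ligases, 2 adaptors, 3 substrates and 5 ubiquitin genes lower. Without both libraries numbered 6 the genes called were 2815 higher and 2455 lower. That setting gave 5 members, 4 other HECT ligases, 7 substrates and 3 tolerance ligases higher, and 2 other HECT ligases, 2 adaptors, 2 substrates, 2 tolerance ligases and 5 ubiquitin genes lower. Upper-quartile scaling called 1 tolerance ligase higher and 347 genes lower in all. DESeq2 called 2 tolerance ligases higher, and 1125 genes in all, 3 substrates and 3 ubiquitin genes lower. With no filter 3 adaptors were higher, and 1 substrate and 2 ubiquitin genes lower, and Grb10 had an edgeR adjusted p of 0.0507. Leaving out 1 library at a time gave 1297 to 2262 genes higher and 435 to 1817 lower in all, with 435, 439 and 448 lower without EZH2i library 3, 4 and 5 and 1817 without EZH2i library 6. It gave 3 to 4 members higher, 2 to 5 adaptors higher and 1 to 2 lower, and 2 to 7 substrates higher and 0 to 1 lower. For the rest it gave 0 to 2 tolerance ligases higher and 1 to 2 lower, 0 to 1 other HECT ligases lower, and 1 to 3 ubiquitin genes lower. With the longest coding transcript as length, chosen after seeing the data, Nedd4 was in place 5 with EZH2i and place 5 with DMSO, and made up 21.7% of the ligase sum with EZH2i and 11.4% with DMSO. Txnip, not called, had a log2 fold change of 0.13, and leaving out 1 library gave -0.038 (DMSO library 6) to 0.32 (EZH2i library 6). The cause of these shifts was not tested. Hecw2, at 45 counts with EZH2i and 15 with DMSO, fell below the filter on low counts.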
